A study of Mus musculus with 8 samples.

Results

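The lipogenesis and triglyceride synthesis genes examined here are 35 genes, selected by symbol from the 55335 genes of a liver count table, and all 35 were found and passed the filter on low counts. They cover 3 transcription factors, the supply of sugar carbon, acetyl-CoA and NADPH, the making of palmitate, its desaturation and elongation, its activation, and the assembly of triglyceride. Bulk liver RNA was sequenced from 8 female mice fed ethanol by the chronic-plus-binge protocol of the NIAAA, in which a period on an ethanol diet ends with a binge dose. The 4 mice labelled Ripk1-hepKO (28, 34, 37 and 39) had Ripk1, a kinase and scaffold below death receptors, deleted in hepatocytes, and the 4 labelled Ripk1-Con (29, 32, 40 and 41) are their controls. Each mouse is a separate animal, so the spread given below is between animals. The sources used here give neither the Cre driver nor the control alleles, the age or the length of feeding, and the liver cells that are not hepatocytes keep the gene. No mouse without ethanol was analysed here, so every difference is one of genotype under ethanol.

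Libraries held 28038390 to 67328158 counts. Ripk1 itself averaged 32.5 ± 6.63 CPM (counts divided by TMM-scaled library size, so that libraries of unequal depth can be compared) in the Ripk1-hepKO libraries and 37.5 ± 11.2 CPM in the Ripk1-Con libraries (SD, n = 4 each; edgeR adjusted p = 0.866). A deletion of some exons need not lower a count over the whole gene, the deleted exons are not given, and each direction below rests on the labels. Ripk1-hepKO mouse 28 stood apart, with a mean Spearman correlation of 0.954 with the other libraries against 0.974 to 0.980 for the rest. Some of the results that rest on it, though not all, are given with and without it. As a check of the tissue, 9 hepatocyte markers summed to 90016 to 107812 CPM in Ripk1-hepKO and 103268 to 127877 CPM in Ripk1-Con. Of these 9, 8 were lower and 1 higher in Ripk1-hepKO, with a median log2 fold change of -0.22 and 0 called. Alb, the most abundant, had 48465 to 68917 CPM in Ripk1-hepKO and 74428 to 90592 CPM in Ripk1-Con. Of 7 adipocyte markers, Lep, Plin1 and Cfd had 0 counts in every mouse and Adipoq and Retn stayed under 1 CPM. The remaining 2 were present: Car3 had 345 to 553 CPM in Ripk1-hepKO and 368 to 515 CPM in Ripk1-Con, and Cidec had 7.76 to 107.5 CPM in Ripk1-hepKO, highest in mouse 28, and 12.98 to 51.7 CPM in Ripk1-Con. The part of fat cells in the members' levels was not tested. In bulk liver, fewer cells of a type and less RNA per cell cannot be told apart.

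The liver turns surplus sugar into fat by de novo lipogenesis: citrate leaves the mitochondrion, is cleaved to acetyl-CoA, is carboxylated to malonyl-CoA and is built into palmitate with NADPH. The pathway is set largely by transcription. SREBP1, encoded by Srebf1, answers to insulin, ChREBP, encoded by Mlxipl, answers to sugar metabolites, and LXR-alpha, encoded by Nr1h3, answers to oxysterols and can raise Srebf1. Excess ethanol is known to fatten the liver, partly through this pathway.

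To show the stretch of DNA where such factors are known to act, the 250 bases before an annotated start are printed for 3 members on which the results below turn, namely Srebf1, with the smallest p among the members, and Fasn and Acly, which varied together across mice. The sequences are from RefSeq on GRCm38.p6, each read 5′ to 3′ on the minus strand of chromosome 11. Capitals mark, on either strand, the GC box GGGCGG (reverse complement CCGCCC), and likewise the NF-Y box CCAAT (reverse complement ATTGG).
Fasn, chr11:120824548-120824797, minus strand: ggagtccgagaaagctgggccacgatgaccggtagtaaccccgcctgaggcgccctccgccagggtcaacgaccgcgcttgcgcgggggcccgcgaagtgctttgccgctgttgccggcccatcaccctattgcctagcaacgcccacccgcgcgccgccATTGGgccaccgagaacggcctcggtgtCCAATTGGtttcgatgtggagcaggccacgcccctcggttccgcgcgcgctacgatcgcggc
Acly, chr11:100528001-100528250, minus strand: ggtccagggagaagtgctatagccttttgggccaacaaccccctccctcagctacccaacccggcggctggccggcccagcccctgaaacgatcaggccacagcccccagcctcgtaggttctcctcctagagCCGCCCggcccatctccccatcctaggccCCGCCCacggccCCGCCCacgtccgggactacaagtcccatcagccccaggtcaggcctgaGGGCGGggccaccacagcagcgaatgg
Srebf1, chr11:60210472-60210721, minus strand, an internal start that lies within the gene: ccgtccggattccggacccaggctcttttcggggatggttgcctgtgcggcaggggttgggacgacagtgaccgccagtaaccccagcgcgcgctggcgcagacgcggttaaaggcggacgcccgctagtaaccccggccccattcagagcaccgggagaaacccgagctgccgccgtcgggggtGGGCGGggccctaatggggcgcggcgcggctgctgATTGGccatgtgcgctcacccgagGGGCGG
The Fasn window held 3 matches of the NF-Y box, of which a pair overlaps, and no GC box. The Acly window held 4 GC boxes and no NF-Y box, and the Srebf1 window shown held 1 NF-Y box and 2 GC boxes. Srebf1 has other annotated starts. The window before its start at 60220627 held 2 GC boxes and no NF-Y box, and that before 60222581 held 1 NF-Y box and no GC box. Which start was in use was not tested. The E-box CACGTG, to which ChREBP and SREBP1 can bind, was in none of the 3 windows shown, and neither was the sterol element core TCACNCC.

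Over 41 windows of 29 members that matched the promoter table, the GC box was in 20 (48.8%, against 32.7% of all 32851 windows). The NF-Y box was in 17 member windows (41.5%, against 33.8% of all). The E-box was in 5 (12.2%, against 6.02%), those of Elovl5, Khk, Lpin2, Mlxipl and Slc25a1. The sterol element core was in 6 windows (14.6%, against 13.4%), those of Aacs, Gpam, Mlxipl, Nr1h3 and Pgd. Both strands were searched, these shares are descriptions with no test, and a match is not a bound site. Scd1, Scd2, Fads1, Elovl3, Dgat1 and Dgat2 had no entry in the promoter table.

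Between the genotypes, the members as a group did not stand out. None of the 35 had an adjusted p under 0.05 in the quasi-likelihood test of edgeR, where 0.0% of the 15234 genes tested did, and their adjusted p ran from 0.742 to 0.981. The DESeq2 Wald test called 36 genes, 0 of them members. Of the members, 22 had a log2 fold change (Ripk1-hepKO over Ripk1-Con) above 0 and 13 below, against 51.8% above 0 over all genes, and their median was 0.16 against 0.01 for all genes. An unadjusted p under 0.05 was found for 3 members, against 6.68% of all genes: Srebf1 and Acss2 were higher in Ripk1-hepKO (3.86% of all genes) and Elovl3 was lower (2.82%). The groups did not overlap for 1 member, Slc25a1, against 4.1% of all genes. These shares are close to the background, so the members' count of low p-values is no result about the pathway.

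**Figure D1:**
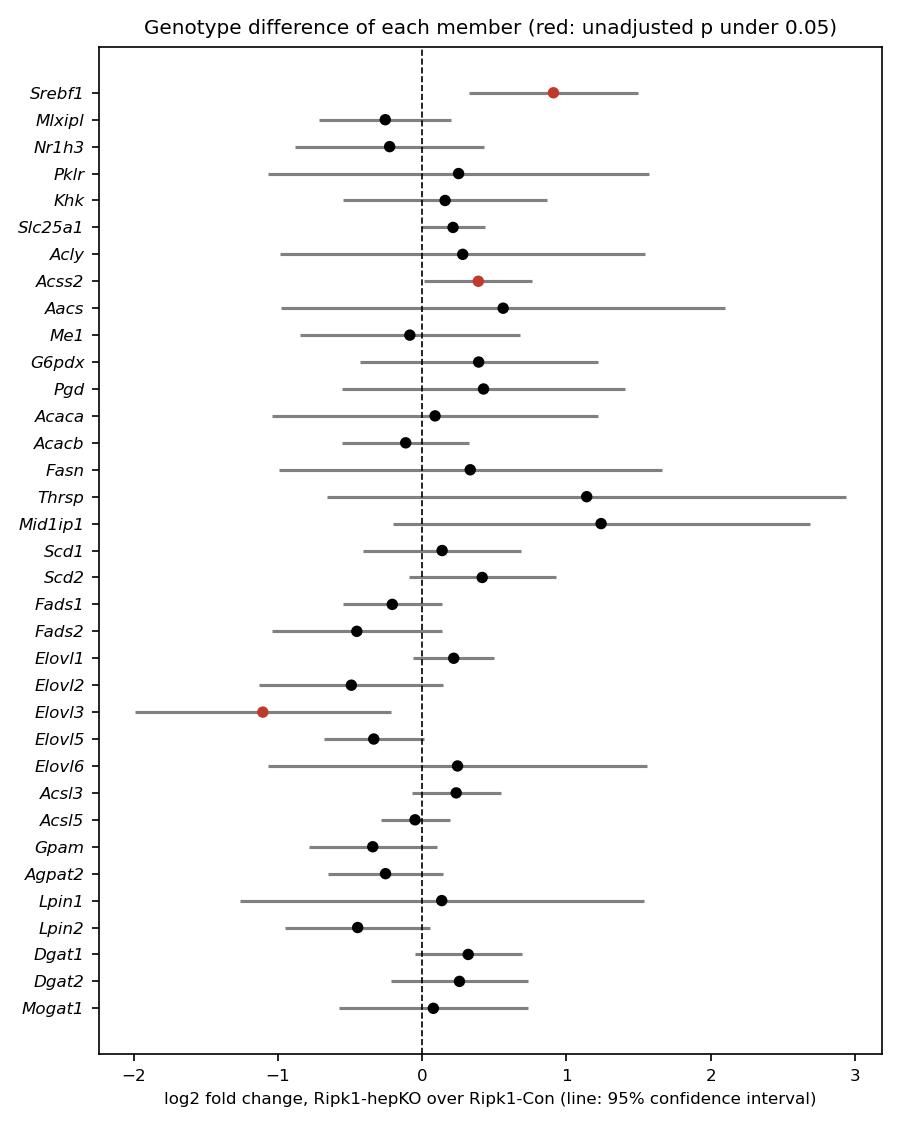
Log2 fold change of each of the 35 members, Ripk1-hepKO over Ripk1-Con, with its 95% confidence interval from edgeR (n = 4 mice each), in pathway order from top to bottom. Srebf1 (0.91), Acss2 (0.39) and Elovl3 (-1.10) are in red for an unadjusted p under 0.05, none passed an adjusted p of 0.05, and the widest intervals belong to Thrsp, Aacs and Mid1ip1.

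Among the regulators, Srebf1 (chr11:60199089-60222581, minus strand, GRCm38) had 116, 107, 61.2 and 53.2 CPM in Ripk1-hepKO mice 28, 34, 37 and 39, against 42.4, 47.8, 53.2 and 36.1 CPM in Ripk1-Con mice 29, 32, 40 and 41. Mice 28, 34 and 37 stood above all controls, while mouse 39 met control mouse 40 at 53.2 CPM. Scaled by library size alone, the groups did not overlap, with 59.3 CPM or more in Ripk1-hepKO and 57.2 CPM or less in Ripk1-Con. Means were 84.4 ± 31.8 CPM in Ripk1-hepKO and 44.9 ± 7.31 CPM in Ripk1-Con (SD, n = 4 each), which is 188% of the control level (95% confidence interval 125% to 282%). The log2 fold change was 0.91 ± 0.26 (SE; unadjusted p = 0.00658, edgeR adjusted p = 0.742). Leaving out each mouse in turn gave 0.72 to 1.08, with 0.72 when mouse 28 was left out. The count joins the SREBP1a and SREBP1c transcripts, and the gene shares exon sequence with Rai1 on the opposite strand, so the isoform behind the difference cannot be told apart.

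The other regulators did not share that direction. Mlxipl had 161, 235, 228 and 326 CPM in Ripk1-hepKO mice 28, 34, 37 and 39, against 273, 274, 339 and 247 CPM in Ripk1-Con mice 29, 32, 40 and 41, and the groups overlapped (log2 fold change -0.26 ± 0.20, SE; adjusted p = 0.817 by edgeR). Nr1h3 had 28.3, 81.0, 81.2 and 79.8 CPM in those Ripk1-hepKO mice and 72.8, 82.2, 81.8 and 79.0 CPM in those Ripk1-Con mice. Apart from mouse 28, all mice lay between 72.8 and 82.2 CPM. The log2 fold change of Nr1h3 was -0.23 ± 0.29 (SE; adjusted p = 0.894 by edgeR) with mouse 28 and 0.03 without it.

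**Figure D2:**
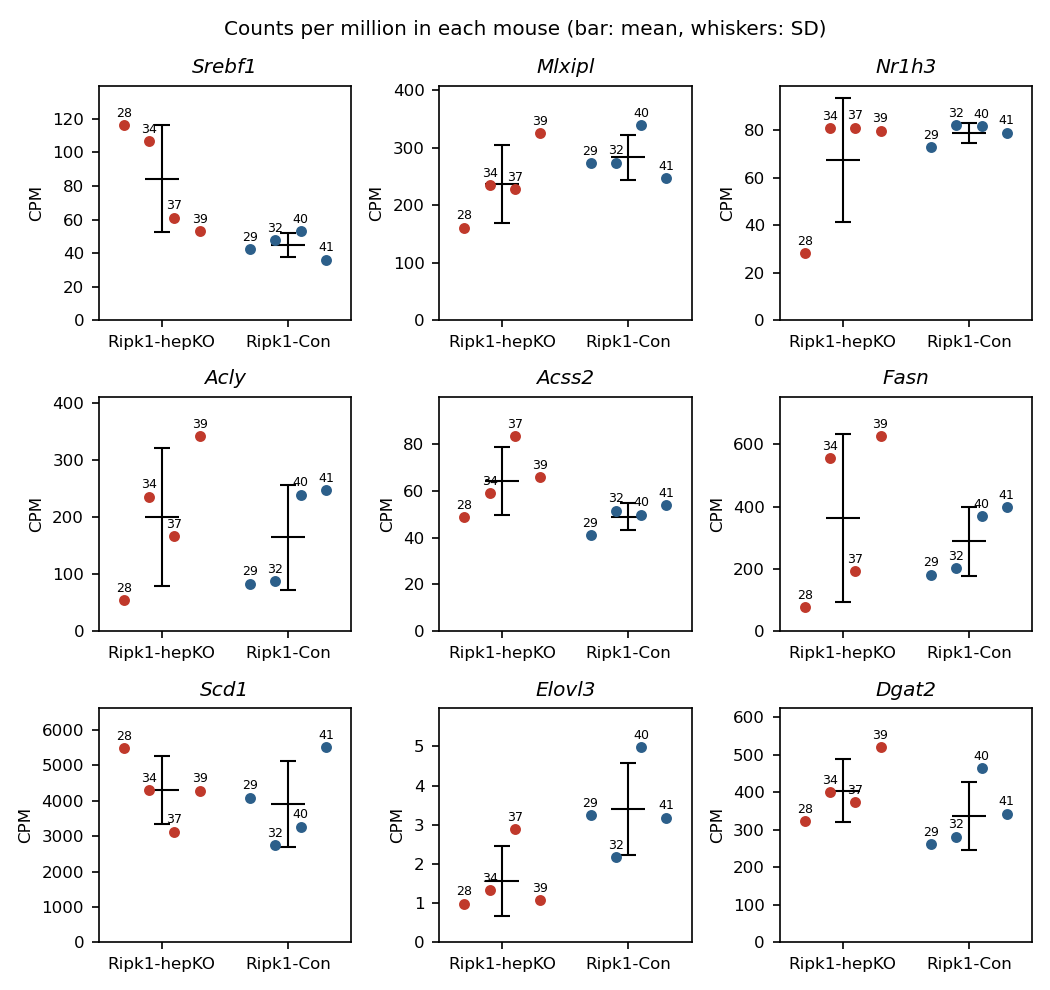
CPM of 9 members in each mouse, Ripk1-hepKO at left and Ripk1-Con at right in each panel, with the mean (bar) and SD (whiskers, n = 4 each) and each point labelled by its mouse. Srebf1 in mice 28, 34 and 37 lies above every control. Nr1h3 lies at 28.3 CPM in mouse 28 and at 72.8 CPM or more elsewhere, and Fasn spans 78.3 to 627 CPM within Ripk1-hepKO alone.

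Sugar carbon enters through fructose and the last step of glycolysis. Khk, ketohexokinase, which phosphorylates fructose, had 211, 531, 478 and 602 CPM in Ripk1-hepKO mice 28, 34, 37 and 39, against 283, 367, 517 and 465 CPM in Ripk1-Con mice 29, 32, 40 and 41 (log2 fold change 0.16 ± 0.31, SE; adjusted p = 0.931 by edgeR). Pklr, liver pyruvate kinase and a classic ChREBP target, averaged 272 ± 164 CPM in Ripk1-hepKO and 228 ± 97.9 CPM in Ripk1-Con (SD, n = 4 each; log2 fold change 0.25). For both genes mouse 28 was the lowest of the 8 mice, and the groups overlapped.

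The 4 genes of acetyl-CoA supply all had positive differences, none of which passed. Slc25a1 (chr16:17925223-17928219, minus strand), the mitochondrial citrate carrier, had 96.0, 105, 114 and 95.5 CPM in Ripk1-hepKO mice 28, 34, 37 and 39, against 82.3, 94.5, 85.1 and 91.6 CPM in Ripk1-Con mice 29, 32, 40 and 41. Every Ripk1-hepKO mouse was above every control, by a small step: 116% of the control level (95% confidence interval 99.4% to 135%; log2 fold change 0.21 ± 0.10, SE; unadjusted p = 0.0578, edgeR adjusted p = 0.750). With library size alone as the scaling the groups overlapped, the lowest Ripk1-hepKO mouse being at 88.1 CPM and the highest control at 91.5 CPM.
Acss2 (chr2:155517948-155585724, plus strand), which makes acetyl-CoA from acetate, the product of ethanol oxidation, had 48.7, 59.0, 83.2 and 65.6 CPM in those Ripk1-hepKO mice. In the Ripk1-Con mice it had 40.9, 51.5, 49.7 and 53.7 CPM. Mice 34, 37 and 39 were above every control, while mouse 28 lay within the control range. Acss2 stood at 131% of the control level (95% confidence interval 101% to 170%), or 0.39 ± 0.17 on the log2 scale (SE; unadjusted p = 0.0426, edgeR adjusted p = 0.742), and at 0.50 without mouse 28. Its exons overlap those of Gss, Ggt7 and Acss2os on the opposite strand.

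Acly (chr11:100476353-100528000, minus strand), ATP citrate lyase, had 54.5, 236, 167 and 342 CPM in Ripk1-hepKO mice 28, 34, 37 and 39, against 83.7, 87.5, 239 and 248 CPM in Ripk1-Con mice 29, 32, 40 and 41. Both groups ran from low to high mice and overlapped widely. Its difference was 0.28 ± 0.56 on the log2 scale (SE; adjusted p = 0.931 by edgeR), with an interval from 50.6% to 292% of the control level. Aacs, which makes acetoacetyl-CoA from ketone bodies, averaged 44.8 ± 29.2 CPM in Ripk1-hepKO and 30.4 ± 26.6 CPM in Ripk1-Con (SD, n = 4 each).

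NADPH for the synthase comes from the pentose phosphate path and malic enzyme. G6pdx, the first enzyme of that path, had 11.2, 4.43, 5.07 and 3.70 CPM in Ripk1-hepKO mice 28, 34, 37 and 39, against 5.02, 5.84, 2.89 and 4.82 CPM in Ripk1-Con mice 29, 32, 40 and 41. Mouse 28 was the highest of all, and without it the log2 fold change was -0.08 in place of 0.39. Pgd, the next dehydrogenase of the path, averaged 83.3 ± 33.6 CPM in Ripk1-hepKO and 62.0 ± 30.4 CPM in Ripk1-Con (SD, n = 4 each). Me1, cytosolic malic enzyme, averaged 230 ± 92.3 CPM in Ripk1-hepKO and 244 ± 76.1 CPM in Ripk1-Con (SD, n = 4 each).

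Of the steps, palmitate making had the widest median span from lowest to highest mouse, at 8.01-fold, though Acacb spanned 1.81-fold. Fasn (chr11:120805846-120824547, minus strand), fatty acid synthase, had 78.3, 555, 194 and 627 CPM in Ripk1-hepKO mice 28, 34, 37 and 39, against 182, 204, 371 and 398 CPM in Ripk1-Con mice 29, 32, 40 and 41. Mice 34 and 39 were above every control and mouse 28 below every control. The log2 fold change was 0.33 ± 0.59 (SE; adjusted p = 0.921 by edgeR), with an interval from 50.2% to 316% of the control level, so a difference of either sign and of more than 1.5-fold lies within it. Acaca (chr11:84129672-84401651, plus strand), the acetyl-CoA carboxylase that feeds the synthase, had 64.3, 354, 182 and 372 CPM in those Ripk1-hepKO mice and 133, 196, 257 and 327 CPM in the Ripk1-Con mice. The order of the mice was that of Fasn, and the log2 fold change was 0.09 ± 0.50 (SE; adjusted p = 0.981 by edgeR). Acacb, the mitochondrial carboxylase whose malonyl-CoA restrains fat oxidation, averaged 133 ± 30.9 CPM in Ripk1-hepKO and 144 ± 24.2 CPM in Ripk1-Con (SD, n = 4 each).

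Mid1ip1, which promotes the polymerisation of acetyl-CoA carboxylase, had 9.33, 52.3, 12.9 and 42.8 CPM in Ripk1-hepKO mice 28, 34, 37 and 39, against 7.79, 5.45, 24.4 and 12.2 CPM in Ripk1-Con mice 29, 32, 40 and 41. Mice 34 and 39 again stood above the rest. Its log2 fold change was the largest of the members, at 1.24 ± 0.64 (SE; unadjusted p = 0.0839, edgeR adjusted p = 0.769). Thrsp, a lipogenic partner of Mid1ip1, averaged 280 ± 228 CPM in Ripk1-hepKO and 127 ± 103 CPM in Ripk1-Con (SD, n = 4 each; log2 fold change 1.14 ± 0.79, SE; adjusted p = 0.796 by edgeR).

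Among the desaturases, Scd1 (chr19:44394455-44407879, minus strand), the stearoyl-CoA desaturase that makes oleate, was the most abundant member per kilobase of exon, at 878 ± 196 CPM per kb in Ripk1-hepKO and 797 ± 247 CPM per kb in Ripk1-Con (SD, n = 4 each). It had 5473, 4299, 3121 and 4282 CPM in Ripk1-hepKO mice 28, 34, 37 and 39, against 4082, 2742, 3264 and 5512 CPM in Ripk1-Con mice 29, 32, 40 and 41. Mouse 28 was the second highest for Scd1, unlike for Fasn. The groups overlapped, at a log2 fold change of 0.14 ± 0.24 (SE; adjusted p = 0.920 by edgeR).
Scd2, a paralogue that could share reads with Scd1, had 9.37, 6.22, 4.86 and 5.92 CPM in those Ripk1-hepKO mice and 5.42, 4.51, 3.98 and 5.84 CPM in those Ripk1-Con mice (log2 fold change 0.42 ± 0.23, SE; adjusted p = 0.770 by edgeR). Fads1, the delta-5 desaturase, averaged 337 ± 41.3 CPM in Ripk1-hepKO and 389 ± 69.3 CPM in Ripk1-Con (SD, n = 4 each; log2 fold change -0.21 ± 0.15, SE; adjusted p = 0.806 by edgeR). Fads2, the delta-6 desaturase, averaged 454 ± 128 CPM in Ripk1-hepKO and 622 ± 204 CPM in Ripk1-Con (SD, n = 4 each; log2 fold change -0.45 ± 0.26, SE; adjusted p = 0.770 by edgeR). Of the 4 desaturases, 2 were thus above 0 and 2 below, with none called.

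Of the 5 elongases, 2 were above 0 and 3 below. Elovl3 (chr19:46131897-46135694, plus strand), which elongates saturated and monounsaturated chains, had 0.990, 1.34, 2.90 and 1.08 CPM in Ripk1-hepKO mice 28, 34, 37 and 39, against 3.25, 2.17, 4.98 and 3.18 CPM in Ripk1-Con mice 29, 32, 40 and 41. Mice 28, 34 and 39 were below every control. It stood at 46.5% of the control level (95% confidence interval 25.1% to 86.1%), or -1.10 ± 0.39 on the log2 scale (SE; unadjusted p = 0.0201, edgeR adjusted p = 0.742). These values rest on 48 to 124 counts in Ripk1-hepKO and 114 to 150 counts in Ripk1-Con, and the gene shares exon sequence with Pitx3 on the opposite strand.
Elovl6, which extends palmitate to stearate, had 44.6, 267, 215 and 418 CPM in those Ripk1-hepKO mice and 85.8, 217, 269 and 225 CPM in those Ripk1-Con mice. It resembled Fasn in having its lowest value in mouse 28 and its highest in mouse 39 (log2 fold change 0.25 ± 0.58, SE; adjusted p = 0.944 by edgeR). Elovl5, which elongates polyunsaturated chains, averaged 383 ± 70.8 CPM in Ripk1-hepKO and 484 ± 56.0 CPM in Ripk1-Con, or -0.34 ± 0.15 on the log2 scale (SE; unadjusted p = 0.0570, edgeR adjusted p = 0.750). Elovl2, which acts on longer polyunsaturated chains, averaged 415 ± 115 CPM in Ripk1-hepKO and 583 ± 219 CPM in Ripk1-Con (SD, n = 4 each; log2 fold change -0.49 ± 0.28, SE; adjusted p = 0.770 by edgeR). Elovl1, an elongase of long saturated chains, averaged 30.7 ± 4.25 CPM in Ripk1-hepKO and 26.4 ± 2.34 CPM in Ripk1-Con (SD, n = 4 each).

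Acyl-CoA synthetases activate the fatty acid before it is esterified. Acsl3, which serves lipid droplets, had 32.5, 29.3, 23.7 and 23.8 CPM in Ripk1-hepKO mice 28, 34, 37 and 39, against 24.2, 25.8, 22.9 and 19.9 CPM in Ripk1-Con mice 29, 32, 40 and 41 (log2 fold change 0.24 ± 0.14, SE; adjusted p = 0.770 by edgeR). Acsl5 averaged 290 ± 14.8 CPM in Ripk1-hepKO and 300 ± 28.2 CPM in Ripk1-Con (SD, n = 4 each), and was the steadiest member, with its highest mouse 1.24 times its lowest.

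Triglyceride is assembled from glycerol-3-phosphate. Gpam, the mitochondrial acyltransferase of the first step, had 80.7, 96.3, 132 and 144 CPM in Ripk1-hepKO mice 28, 34, 37 and 39, against 133, 126, 138 and 177 CPM in Ripk1-Con mice 29, 32, 40 and 41. Mice 28 and 34 were below every control, the same mice in which Srebf1 was highest (log2 fold change -0.34 ± 0.20, SE; adjusted p = 0.770 by edgeR). Lpin2, a phosphatidate phosphatase, had 370, 177, 324 and 256 CPM in those Ripk1-hepKO mice, against 351, 425, 317 and 443 CPM in those Ripk1-Con mice. The groups overlapped, and the log2 fold change was -0.45 ± 0.22 (SE; unadjusted p = 0.0751, edgeR adjusted p = 0.762).
Dgat2, the acyltransferase that finishes triglyceride from newly made fat, had 322, 400, 373 and 520 CPM in Ripk1-hepKO mice 28, 34, 37 and 39, against 262, 282, 464 and 343 CPM in Ripk1-Con mice 29, 32, 40 and 41 (log2 fold change 0.26 ± 0.21, SE; adjusted p = 0.819 by edgeR). Dgat1, the other enzyme of that step, averaged 17.5 ± 4.11 CPM in Ripk1-hepKO and 14.1 ± 0.548 CPM in Ripk1-Con (SD, n = 4 each). Agpat2, which adds the second acyl chain, averaged 94.5 ± 22.9 CPM in Ripk1-hepKO and 113 ± 9.93 CPM in Ripk1-Con (SD, n = 4 each). Lpin1, the inducible phosphatidate phosphatase, averaged 196 ± 105 CPM in Ripk1-hepKO and 178 ± 119 CPM in Ripk1-Con (SD, n = 4 each). Mogat1, a monoacylglycerol acyltransferase, was scarce, at 0.894 ± 0.0347 CPM in Ripk1-hepKO and 0.841 ± 0.266 CPM in Ripk1-Con (SD, n = 4 each), from 18 to 72 counts a library.

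Many of the members varied widely between mice. Over both genotypes, Thrsp spanned 13.6-fold from its lowest to its highest mouse, Mid1ip1 9.60-fold, Elovl6 9.37-fold, Pklr 9.29-fold, Lpin1 9.12-fold and Fasn 8.01-fold. For these genes among the 4 Ripk1-hepKO mice alone, Thrsp spanned 13.6-fold, Elovl6 9.37-fold, Pklr 9.29-fold, Fasn 8.01-fold, Lpin1 6.72-fold and Mid1ip1 5.60-fold. Among the 4 Ripk1-Con mice alone, the same genes spanned 5.68-fold, 3.13-fold, 3.24-fold, 2.18-fold, 5.33-fold and 4.48-fold. For all of these genes mouse 28 was the lowest Ripk1-hepKO mouse, so the Ripk1-hepKO spans rest in part on it. Mice 34, 37 and 39 had 165 to 564 CPM for Thrsp, 215 to 418 for Elovl6 and 284 to 437 for Pklr. They had 194 to 627 CPM for Fasn, 241 to 255 for Lpin1 and 12.9 to 52.3 for Mid1ip1. The Ripk1-Con mice had 46.4 to 264 CPM for Thrsp, 85.8 to 269 for Elovl6 and 102 to 332 for Pklr. They had 182 to 398 CPM for Fasn, 64.9 to 346 for Lpin1 and 5.45 to 24.4 for Mid1ip1. Of 31 members with a mean of at least 10 CPM, 9 (29%) spanned more than 4-fold, against 5.31% of the 7460 genes tested at that level. The median span was 2.63-fold for the members and 1.56-fold for those genes. Mouse 28 was the lowest of the 8 for 16 members, among them Fasn, Acaca, Acly, Elovl6 and Lpin1, and the highest for 5, namely Srebf1, G6pdx, Scd2, Acsl3 and Dgat1. Mouse 39, also Ripk1-hepKO, was the highest for 10, among them Fasn, Acaca, Acly and Elovl6. For those 4 genes the lowest and the highest of the 8 mice were thus both Ripk1-hepKO.

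**Figure D3:**
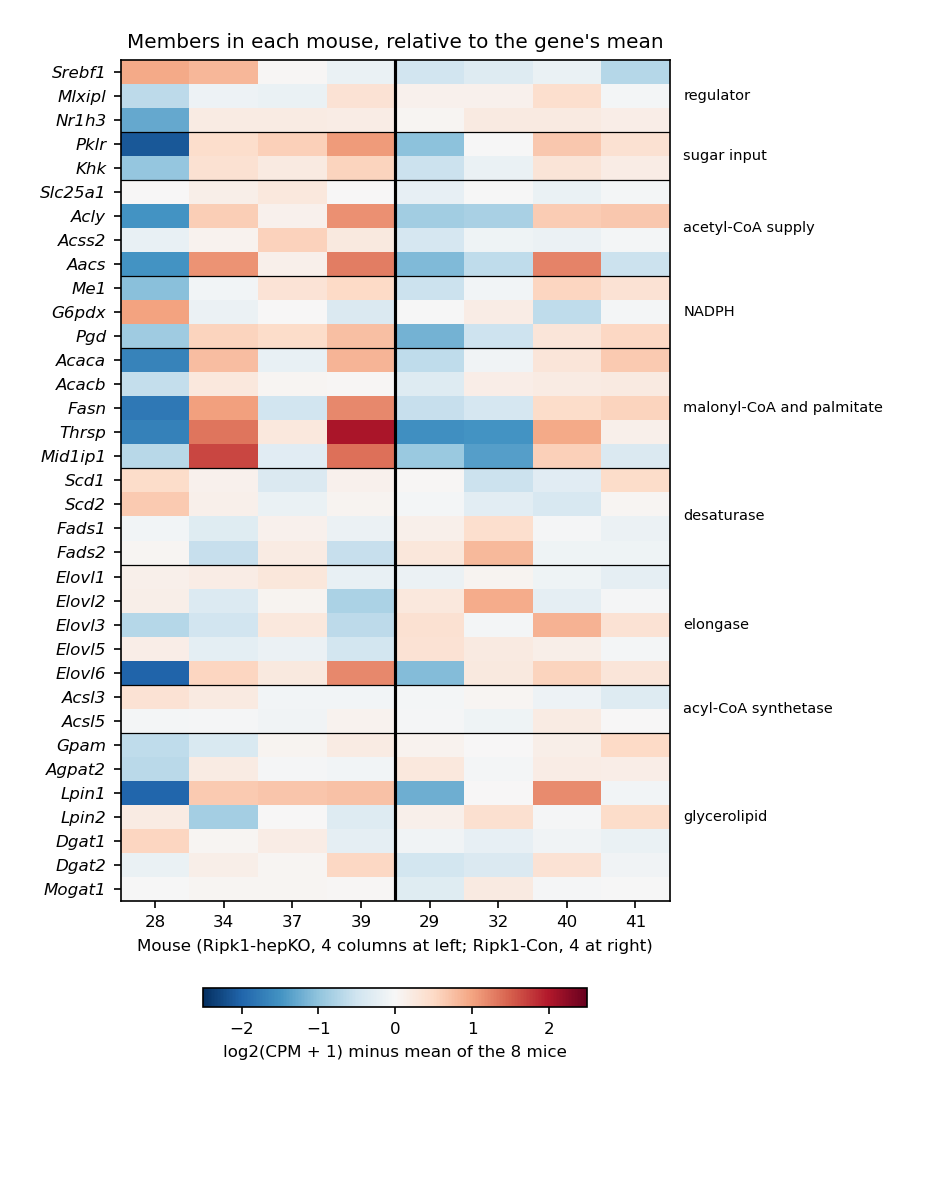
Each member in each mouse, as log2(CPM + 1) minus the gene's mean over the 8 mice, with Ripk1-hepKO in the 4 columns at left and Ripk1-Con in the 4 at right, and members ordered by step. Mouse 28 is blue, below the mean, for Fasn, Acaca, Acly, Elovl6, Pklr and Lpin1 and red, above it, for Srebf1, and mouse 39 is red for the same enzymes.

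Some cell type markers were extreme in mouse 28 too. Its summed markers were the highest of the 8 mice for monocytes (123.5 CPM), neutrophils (43.4 CPM), stellate cells (428 CPM) and cholangiocytes (62.7 CPM). From the highest down, its sums ranked 3 for Kupffer cells, for adipocytes and for T and B cells. They ranked 4 for endothelial cells, 6 for hepatocytes and 8 for erythroid cells. These sums lean on abundant genes: in mouse 28, Lyz2 had 81.7 CPM, Dcn 231 CPM and Spp1 53.7 CPM. Not every marker of the 4 highest lists was high in mouse 28. The monocyte marker Ly6c2 had 0.642 CPM there and 1.66 CPM in mouse 37, and the neutrophil marker Mpo had 0 CPM. Over all mice, the summed monocyte markers ran from 65.3 to 123.5 CPM in Ripk1-hepKO and from 36.7 to 103.9 CPM in Ripk1-Con, and all 7 had a positive difference. Neutrophil markers ran from 9.30 to 43.4 CPM in Ripk1-hepKO and from 3.15 to 29.5 CPM in Ripk1-Con, and stellate markers from 302 to 428 CPM in Ripk1-hepKO and from 253 to 310 CPM in Ripk1-Con. Cholangiocyte markers ran from 15.5 to 62.7 CPM in Ripk1-hepKO and from 13.5 to 34.5 CPM in Ripk1-Con. The part of these cells in the members' levels was not tested.

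Leaving out mouse 28 moved the members' counts. Then 7 members had an unadjusted p under 0.05, against 5.75% of genes: Srebf1, Slc25a1, Acss2 and Mid1ip1 higher in Ripk1-hepKO, and Elovl3, Elovl5 and Lpin2 lower. For 3 members the groups did not overlap, against 6.49% of genes. The log2 fold change of Fasn was then 0.67, that of Acly 0.60, that of Elovl6 0.59 and that of Acaca 0.41. Leaving out mouse 39 instead gave -0.07, -0.11, -0.18 and -0.19 for the same genes, so their sign turned when mouse 39 was left out. Without mouse 39, 5 members had an unadjusted p under 0.05, against 7.33% of genes, and 5 had groups that did not overlap, against 7.73%. Without mice 28 and 40 together, 12 members had an unadjusted p under 0.05, against 9.48% of genes, and the groups of 12 did not overlap, against 15.6%. With weights for library quality in limma voom, 9 members had an unadjusted p under 0.05, against 8.91% of genes. No member had an adjusted p under 0.05 in any of these fits.

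Across the 8 mice, no relation of the members with Srebf1, Mlxipl or Nr1h3 passed after adjustment. Srebf1 and Fasn had r = -0.27 and rho = -0.19 on log2(CPM + 1) (exact two-sided permutation p = 0.509 and 0.665, adjusted p = 0.714 and 0.919). For this pair r was 0.38 without mouse 28, -0.05 without mice 28 and 34, and -0.40 within genotype. Mlxipl and Fasn had r = 0.69 and rho = 0.48 (exact permutation p = 0.0553 and 0.243; adjusted p = 0.240 and 0.760), and r was 0.27 without mice 28 and 40. Nr1h3 and Fasn had r = 0.74 and rho = 0.31 (exact permutation p = 0.0408 and 0.462; adjusted p = 0.217 and 0.879), and r was -0.55 without mice 28 and 29, so that relation rests on those mice. Over all 99 relations, 12 passed when CPM was scaled by library size alone. With TMM scaling, where none passed, the largest in size was that of Srebf1 with Gpam (r = -0.93, rho = -0.74). Its exact permutation p was 0.00285 and 0.0458 (adjusted p = 0.117 and 0.760), and r was -0.64 without mice 28 and 34. Mlxipl with G6pdx followed (r = -0.90, rho = -0.67; exact permutation p = 0.00593 and 0.0831, adjusted p = 0.117 and 0.760), at r = -0.44 without mice 28 and 40. Srebf1 with Acsl3 came next (r = 0.90, rho = 0.57; exact permutation p = 0.00441 and 0.151, adjusted p = 0.117 and 0.760), at r = 0.54 without mice 28 and 34.

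Taking Fasn itself as the index gene, a choice that followed a look at the data, gave more relations. Of 31 relations with the other enzymes, 10 had an exact permutation adjusted p under 0.05 by Pearson's r and 6 by Spearman's rho. The adjustment over these relations does not cover the choice of Fasn. The 10 had an r of at least 0.79 in size, a size reached by 6.47% of all 15233 other genes tested. Mouse 28 also stood apart over all genes, and its part in these relations is given below by leaving it out. Acaca came first, with r = 0.97 and rho = 1, and r stayed at 0.94 without mice 28 and 39, the pair farthest from the median. Acly (r = 0.93, rho = 0.90), Khk (0.91 and 0.88), Elovl6 (0.89 and 0.93) and Thrsp (0.87 and 0.88) followed, with r of 0.83, 0.73, 0.64 and 0.81 without those mice. Within genotype, r was 0.98 for Acaca, 0.94 for Acly, 0.91 for Khk, 0.89 for Elovl6 and 0.94 for Thrsp. Scd1 had r = -0.03 and rho = 0.19 with Fasn, and G6pdx had r = -0.83 and rho = -0.76. Without mouse 28, 1 of the 31 relations passed, and 8 of the 31 (25.8%) reached that size of r, against 6.85% of all genes.

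**Figure D4:**
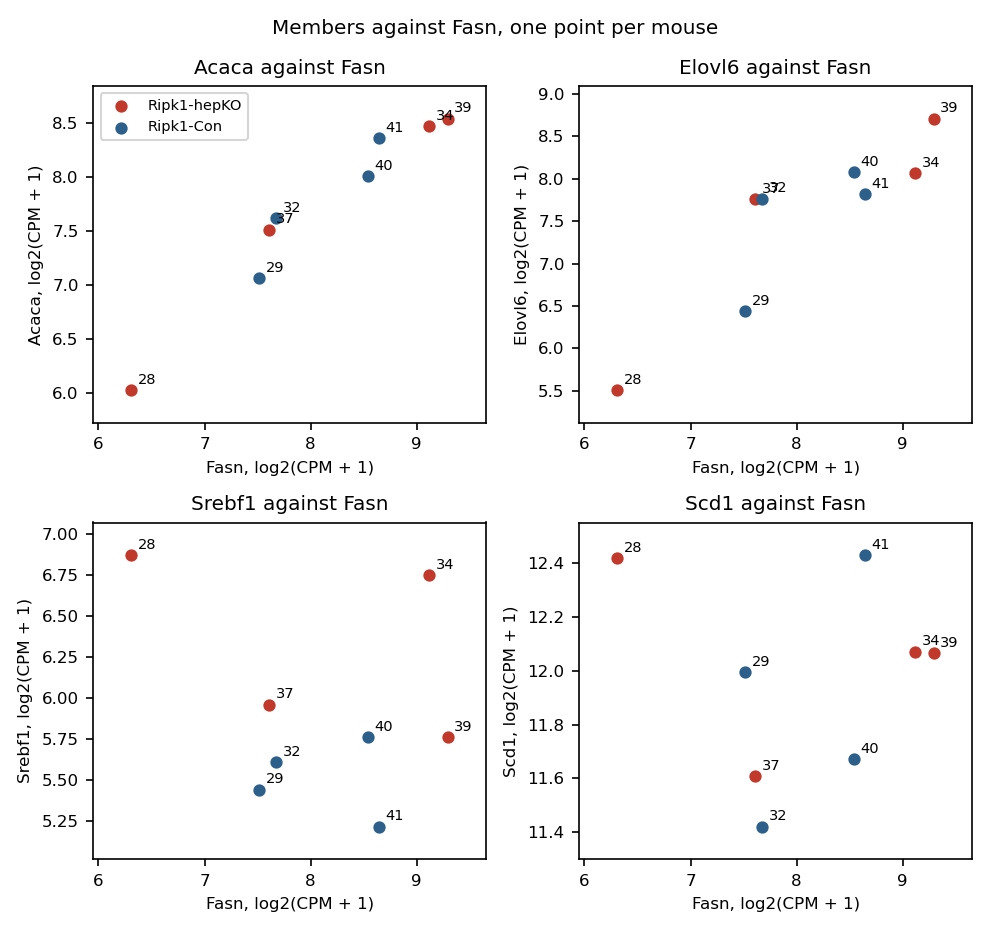
Log2(CPM + 1) of Acaca, Elovl6, Srebf1 and Scd1 against that of Fasn, 1 point per mouse, Ripk1-hepKO in red and Ripk1-Con in blue. Acaca and Elovl6 climb with Fasn (r = 0.97 and 0.89), while r is -0.27 for Srebf1 and -0.03 for Scd1, and mouse 28 has the lowest Fasn and the highest Srebf1.

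Other genes of the pathway were taken from a list of 73, of which 70 were tested. None was called by edgeR, 38 had a log2 fold change above 0 and 32 below, and the median was 0.02. An unadjusted p under 0.05 was found for 8 of the 70, of which 2 were higher and 6 lower in Ripk1-hepKO, against 6.68% of all genes (3.86% higher and 2.82% lower). More of these were thus lower than higher, unlike among the members and all genes. The groups of 5 did not overlap, against 4.1% of all genes. Nothing particular to the list is read from these counts. Acsl1, the main long-chain acyl-CoA synthetase of liver, averaged 325 ± 62.0 CPM in Ripk1-hepKO and 573 ± 138 CPM in Ripk1-Con (SD, n = 4 each), and its groups did not overlap (log2 fold change -0.82 ± 0.20, SE; unadjusted p = 0.00234, edgeR adjusted p = 0.742). Agpat3, an acyltransferase of phosphatidate synthesis, averaged 161 ± 26.6 CPM in Ripk1-hepKO and 216 ± 7.83 CPM in Ripk1-Con, again without overlap. Fabp1, the fatty acid binding protein of liver, averaged 1219 ± 237 CPM in Ripk1-hepKO and 1646 ± 149 CPM in Ripk1-Con. Mlycd, which breaks down malonyl-CoA, had a log2 fold change of -0.38, Mpc2, a subunit of the mitochondrial pyruvate carrier, -0.28, and Srebf2, which encodes the SREBP of cholesterol synthesis, -0.29. The remaining 2 were above 0: Mogat2 at 1.13, from levels under 1 CPM, and Arrdc4, a ChREBP target, at 1.31, with 65.9 CPM in mouse 28, 8.67 to 19.8 CPM in the other Ripk1-hepKO mice, and 9.91 to 12.2 CPM in Ripk1-Con.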

How the data were processed

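Polyadenylated liver RNA of 8 mice was read in strand-specific paired-end libraries, per the labels' protocols. The authors deposited raw counts, as whole numbers for each Ensembl gene. For the genome build, the submitters' processing notes give GRCm38.p6. Among tools they list DESeq2 1.38.1, StringTie 2.2.1, STAR 2.5.2b and FastQC 0.11.5, without saying what each did. The counting tool, its strand setting and the annotation release are not given in the sources used here. Genes that overlap on the opposite strand (13 members) or on the same strand (4 members), and close paralogues such as Scd1 and Scd2, are therefore uncertain.

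Symbols came from GENCODE M21, to which 55154 gene IDs matched and 181 did not. The members, the other pathway genes and the marker lists were chosen with earlier results of these data known. The rule for named genes gives every mouse for the 3 regulators, for Acly, Acaca, Fasn, Scd1, Elovl6, Gpam and Dgat2, for the member of smallest p in each step, and for any with an unadjusted p under 0.05 or groups that do not overlap. Other members get means and SD. Genes of the other list are named at an unadjusted p under 0.05.

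Counts were filtered with filterByExpr, scaled by TMM and tested by a robust quasi-likelihood fit of genotype in edgeR 4.0.16 (R 4.3.3), with Benjamini-Hochberg adjustment over 15234 genes. The common biological coefficient of variation was 0.292. No pair of libraries was alike within sampling noise (lowest chi-square per degree of freedom 34.0 over 28 pairs). Without molecular identifiers, PCR copies count as separate reads, so counting precision is an upper bound. Tested on simulated data of this comparison (14940 genes, 50 changed at each fold), the fit called 14% of genes changed 1.5-fold, 54% at 2-fold, 94% at 4-fold and 100% at 8-fold, with 3 false calls. The changed genes were drawn at random from genes above a set mean count. These shares therefore need not hold for members that varied more between mice or had fewer counts.

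Correlations used log2(CPM + 1) and an exact permutation test over all pairings of the 8 mice, with Benjamini-Hochberg adjustment over 99 relations (regulators) or 31 (Fasn). Alternatives were scaling by library size alone or by DESeq2 size factors, no filter, 1 CPM in 4 libraries, the DESeq2 1.42.0 Wald test, voom from limma 3.58.1 with and without quality weights, edgeR without the robust option, leaving out each mouse, mice 28 and 40 left out, pseudocounts of 0.25 and 5, and other motif spellings. Of the marker lists, those of hepatocytes, adipocytes, monocytes, neutrophils, stellate cells and cholangiocytes are given with the results. The other lists had these median log2 fold changes: Kupffer cells 0.14, endothelial cells 0.06, T and B cells -0.11 and erythroid cells -0.37, with 0 genes called. The hepatocyte marker Tf was not used here.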

Additional observations from a re-analysis of the deposited data

Results flagged for a closer look

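In 70 groups of 4 mice (35 members, each genotype), 4 single values lay so far from their 3 fellows that the gap took up more of the range than Dixon's critical value at 95% allows. Chance gives such a value in about 1 of 20 groups, or 3.5 here, so the count is close to what chance gives. Nr1h3, the LXR-alpha gene, stood at 28.3 CPM in Ripk1-hepKO mouse 28, with its fellows at 79.8 to 81.2 CPM. Lpin1 stood at 38.0 CPM in the same mouse, with its fellows at 241 to 255 CPM. Aacs stood at 70.1 CPM in Ripk1-Con mouse 40, with its fellows at 13.01 to 19.9 CPM. Acacb stood at 108 CPM in Ripk1-Con mouse 29, with its fellows at 153 to 159 CPM.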

How the results depend on the processing

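Over 17 alternatives of the genotype fit, 0 members were called in any, and 21 of 35 kept their direction in all. No paired analysis was possible because the mouse numbers are not shared between the genotypes. Over all genes, the DESeq2 Wald test called 36, where edgeR called 0. Members at an unadjusted p under 0.05 numbered 9 with voom quality weights (8.91% of all genes), 12 without mice 28 and 40 (9.48%) and 2 to 7 with each mouse left out. Members without overlap numbered 2 with library size alone (Srebf1 and Lpin2, not Slc25a1), 12 without mice 28 and 40 (15.6% of all genes) and 1 to 5 with each mouse left out. Of all genes, 6.49% did not overlap without mouse 28 and 7.73% without mouse 39. The shares at an unadjusted p under 0.05 were 5.75% and 7.33% in those fits. All genes at an unadjusted p under 0.05 numbered 633 to 1409 with each mouse left out, the fewest without mouse 29. For the other pathway genes that number was 5 with library size alone, 5 with voom and 3 to 10 with each mouse left out. It was 16 without mice 28 and 40, where 9.48% of all genes reached that p and the list's median log2 fold change was -0.043. Where no share over all genes is given beside a count, nothing is read from that count. With limma voom, Pklr (-0.00040), Acaca (-0.12), Fasn (-0.0086) and Elovl6 (-0.0076) turned below 0. With quality weights Me1 (0.10), G6pdx (-0.067), Acacb (0.044) and Scd1 (-0.042) turned. Without mice 28 and 40, Nr1h3 (0.048), Me1 (0.32), G6pdx (-0.25), Acacb (0.076), Scd1 (-0.076) and Acsl5 (0.027) turned. With each mouse left out, the log2 fold change ran from -0.32 to 0.031 for Nr1h3, -0.076 to 0.60 for Pklr, -0.0037 to 0.40 for Khk and -0.11 to 0.60 for Acly. It ran from -0.27 to 0.15 for Me1, -0.084 to 0.58 for G6pdx, -0.19 to 0.41 for Acaca, -0.23 to 0.034 for Acacb and -0.066 to 0.67 for Fasn. It ran from -0.18 to 0.59 for Elovl6, -0.090 to 0.024 for Acsl5, -0.14 to 0.69 for Lpin1 and -0.093 to 0.29 for Mogat1. With library size alone, 12 relations with the regulators passed adjustment, and the correlation of Fasn with Scd1 was 0.17. With each mouse left out that correlation ran from -0.17 to 0.56, that of Srebf1 with Fasn from -0.67 to 0.38, and 1 to 11 relations with Fasn passed, where leaving out mouse 29, 32, 34 or 39 left 5 or 6. The sterol core as TCACCCC alone was in 2 member windows (4.88%, against 4.31% of all windows). The E-box as CANNTG was in 21 (51.2%, against 66.2% of all), a lower share than over all windows, unlike for CACGTG. Fasn and Srebf1 were among the members with a CANNTG window, and Acly was not. Causes were not tested. With 4 mice a group and simulated calls for 14% of genes changed 1.5-fold, differences of that size would mostly be missed. Larger differences could be missed as well in members that varied widely between mice. Mogat1 and Elovl3 rest on low counts.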

Other observations

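Mouse 28 also stood apart in genes around the pathway that the comparisons above do not turn on, chosen after their values were seen. Plin2, which coats lipid droplets, had 2633, 435, 672 and 568 CPM in Ripk1-hepKO mice 28, 34, 37 and 39, against 1137, 1094, 1040 and 977 CPM in control mice 29, 32, 40 and 41. The other 3 Ripk1-hepKO mice were below every control, while mouse 28 was above every control, and the genotype means were 1077 ± 1042 CPM in Ripk1-hepKO, against 1062 ± 69.0 CPM in Ripk1-Con (SD, n = 4 each). Cidec, a lipid droplet fusion protein, had 107.5 CPM in mouse 28, 7.76 to 14.0 CPM in the other Ripk1-hepKO mice, and 12.98 to 51.7 CPM in Ripk1-Con. Abca1, a cholesterol exporter and LXR target, had 858 CPM in mouse 28, where Nr1h3 was lowest, 123 to 224 CPM in the other Ripk1-hepKO mice, and 158 to 218 CPM in Ripk1-Con. Tkfc, which phosphorylates glyceraldehyde from fructose, had 127 CPM in mouse 28, 946 to 1308 CPM in the other Ripk1-hepKO mice, and 368 to 1133 CPM in Ripk1-Con.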
